A study of Mus musculus with 17 samples.

Results

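The mRNAs of 10 genes that shape the bone marrow niche of blood stem cells were followed through cultured bone marrow mesenchymal stem cells (MSC), tumour lines derived from them, and clones of tumour line cells. The genes were picked by symbol, and all 10 have a row among the 23420 genes of the count table. They are the secreted or membrane-bound factors Cxcl12, Kitl, Angpt1, Il7 and Csf1, the adhesion molecule Vcam1, the receptors Kit and Lepr, and the transcription factors Ebf3 and Foxc1. All 17 libraries come from cells of C57BL/6 mice with a knock-in of R172H, a mutant allele of the tumour suppressor p53. The 3 MSC libraries are cultures grown from the marrow of femurs and tibias in MSC medium, with no tumour and no other agent named. The 6 first-generation tumour lines (TL1) were grown from tumours that MSC gave rise to. The 4 second-generation tumour lines (TL2) came from tumours that formed after first-generation lines were injected. The 2 Mut clones are clones of a first-generation line that keep the mutant p53 gene, and the 2 KO clones are first-generation clones labelled as p53 knockout. The sources used here name neither the line the clones came from nor the way the gene was knocked out. All tumour-derived cells were grown with leukaemia inhibitory factor on plates coated with agar, and all cells were used within 20 passages. Culture on agar with that factor and the difference between tumour lines and MSC therefore cannot be told apart. Each clone stands for the cell it was grown from.

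In the marrow, blood stem cells are held beside vessels by stromal cells that bear the leptin receptor and make large amounts of Cxcl12, a chemokine that retains stem cells through its receptor CXCR4, and of stem cell factor, the product of Kitl, which keeps them alive through the receptor tyrosine kinase Kit. The transcription factors EBF3 and FOXC1 are needed in these stromal cells to keep the niche open and the factors expressed. Angpt1 encodes a ligand of the receptor TIE2, Vcam1 a surface protein that integrins with an alpha 4 chain bind, Il7 a cytokine for lymphoid progenitors, and Csf1 the growth factor of macrophages and osteoclasts.

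The promoters of 4 of the genes are shown because Cxcl12 is the most abundant of the 10 mRNAs in MSC, and because Kit, Csf1 and Ebf3 hold a match to the core of the EBF site. Each window is the 250 bases before the annotated start, 5′ to 3′ on the gene's strand, from RefSeq on GRCm38.p6. Capitals mark CCCNNGGG, the EBF core, searched on both strands.
Cxcl12 (chr6:117168285-117168534, plus strand): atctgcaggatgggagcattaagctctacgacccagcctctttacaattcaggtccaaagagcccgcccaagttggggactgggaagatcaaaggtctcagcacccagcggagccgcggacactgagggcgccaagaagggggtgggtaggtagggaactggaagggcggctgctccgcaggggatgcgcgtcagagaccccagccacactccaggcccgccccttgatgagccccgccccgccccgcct
Kit (chr5:75574737-75574986, plus strand): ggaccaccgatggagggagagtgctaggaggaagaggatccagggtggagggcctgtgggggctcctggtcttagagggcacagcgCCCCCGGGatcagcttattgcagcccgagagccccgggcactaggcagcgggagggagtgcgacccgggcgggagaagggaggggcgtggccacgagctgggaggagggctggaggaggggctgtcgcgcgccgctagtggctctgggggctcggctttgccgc
Csf1 (chr3:107760470-107760719, minus strand): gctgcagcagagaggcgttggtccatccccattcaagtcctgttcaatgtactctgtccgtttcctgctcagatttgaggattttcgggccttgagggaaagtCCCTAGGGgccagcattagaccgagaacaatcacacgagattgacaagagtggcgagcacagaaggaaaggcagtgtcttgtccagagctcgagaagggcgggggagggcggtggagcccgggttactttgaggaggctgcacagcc
Ebf3 (chr7:137314446-137314695, minus strand): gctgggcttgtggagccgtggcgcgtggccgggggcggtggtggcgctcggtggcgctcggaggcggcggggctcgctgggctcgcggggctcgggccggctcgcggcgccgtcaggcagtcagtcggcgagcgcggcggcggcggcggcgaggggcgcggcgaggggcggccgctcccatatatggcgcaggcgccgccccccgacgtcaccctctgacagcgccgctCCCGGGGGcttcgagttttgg
By GENCODE M21 on GRCm38 the genes of the plus strand are Cxcl12 on chr6:117168535-117181367, Kitl on chr10:100015630-100100416, Kit on chr5:75574916-75656722, Lepr on chr4:101717404-101815352 and Foxc1 on chr13:31806633-31812476. Those of the minus strand are Vcam1 on chr3:116109949-116129688, Angpt1 on chr15:42424723-42676977, Il7 on chr3:7569994-7613760, Csf1 on chr3:107741048-107760469 and Ebf3 on chr7:137193673-137314445. The EBF core begins 164 bases before the start in Kit, 147 in Csf1 and 21 in Ebf3. It is present in 11.8% of 32851 RefSeq promoter windows of the same length. The Csf1 window also holds a kB core (GGGAATTTC or GGGACTTTC, either strand) that begins 153 bases before the start and overlaps the EBF core. That motif is present in 0.524% of windows. The FOX core TAAACA, in 12% of windows, and the hypoxia element core ACGTG, in 16.6%, had no match in any member's window. The windows of Cxcl12, Kitl, Lepr and Foxc1 held none of the 4 motifs. RefSeq promoter entries matched 7 of the 10 genes, leaving Vcam1, Angpt1 and Il7 named only. Kit and Lepr have a second annotated start each, with the EBF core again in Kit alone.

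Library totals ranged from 12215025 to 15962341 counts, and no library of a group repeated another. Nothing in the labels ties the libraries of a group to separate animals or cultures, so the p-values measure only how far these libraries spread, and that spread may be technical. Tumour lines that share a number also resembled each other (r = 0.451, 0.352 and 0.493 between TL1 and TL2), while the main fit treats all lines as separate. Trp53, the gene that encodes p53, was at 358 and 280 CPM, read counts scaled to a common library total, in the 2 Mut clones and at 80.8 and 89.6 CPM in the 2 KO clones. It ranged from 122 to 311 CPM over the tumour lines and from 197 to 263 CPM over the MSC. Of 16 listed stromal surface markers, Pdgfrb (740 CPM on average), Pdgfra (140 CPM), Cd44 (208 CPM) and Eng (73.9 CPM) were among those present in MSC. Ngfr, Nt5e and Cspg4 of the same list were low there, at 0.432, 1.79 and 3.40 CPM. Ptprc, the pan-leukocyte marker, averaged 0.139 CPM in MSC, with libraries from 0 to 0.418 CPM. The macrophage marker Lyz2 ranged from 0 to 20.1 CPM over the MSC libraries. The ribosomal RNA precursor Rn45s made up 4.14% of all counts in KO clone 2 and at most 1.59% in any other library. Marker genes of skeletal muscle (9 genes) summed to 10.9 to 123 CPM in MSC, 12.8 to 2.98e+03 CPM over tumour lines, 4.06 to 4.3 CPM in Mut clones and 3.39e+03 to 4.55e+03 CPM in KO clones. Marker genes of osteoblasts (8 genes) summed to 7.01e+03 to 9.48e+03 CPM in MSC and 47.7 to 4.16e+03 CPM over tumour lines, with Col1a1 alone averaging 7718 CPM in MSC and 1253 CPM in the lines. Phex, of the same list, was called higher in the lines (1.83 and 27.9 CPM, adjusted p = 0.00516, edgeR). Marker genes of adipocytes (9 genes) summed to 385 to 967 CPM in MSC and 18.4 to 91.5 CPM over the lines. Fewer cells of a type and less RNA per cell cannot be told apart in such bulk libraries, and the part of these other marker lists in the results below was not tested.

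Levels are given as CPM on library sizes scaled by TMM over all 17 libraries. Divided by exon length, to compare genes with each other, the order in MSC ran from Cxcl12 at 492.8 ± 253.9 CPM per kb (SD, n = 3) through Csf1 at 189, Foxc1 at 38.5, Kitl at 13.7, Vcam1 at 10.2, Angpt1 at 9.42, Ebf3 at 4.73, Lepr at 0.834 and Kit at 0.341 to Il7 at 0.265. Neighbours in that order did not overlap between libraries, apart from Kitl, Vcam1 and Angpt1, and apart from Kit and Il7. In all 4 other groups Csf1 stood first, at 164 CPM per kb in TL1, 118 in TL2, 249 in the Mut clones and 63.7 in the KO clones. Its libraries overlapped those of the next gene only in the KO clones, where Cxcl12 followed at 41.5 CPM per kb. In the Mut clones Cxcl12 was the fifth gene, at 1.45 CPM per kb. Lepr, the surface marker of the niche cell, was low in every group, from 0.731 CPM per kb in the KO clones to 1.10 in TL1.

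**Figure D1:**
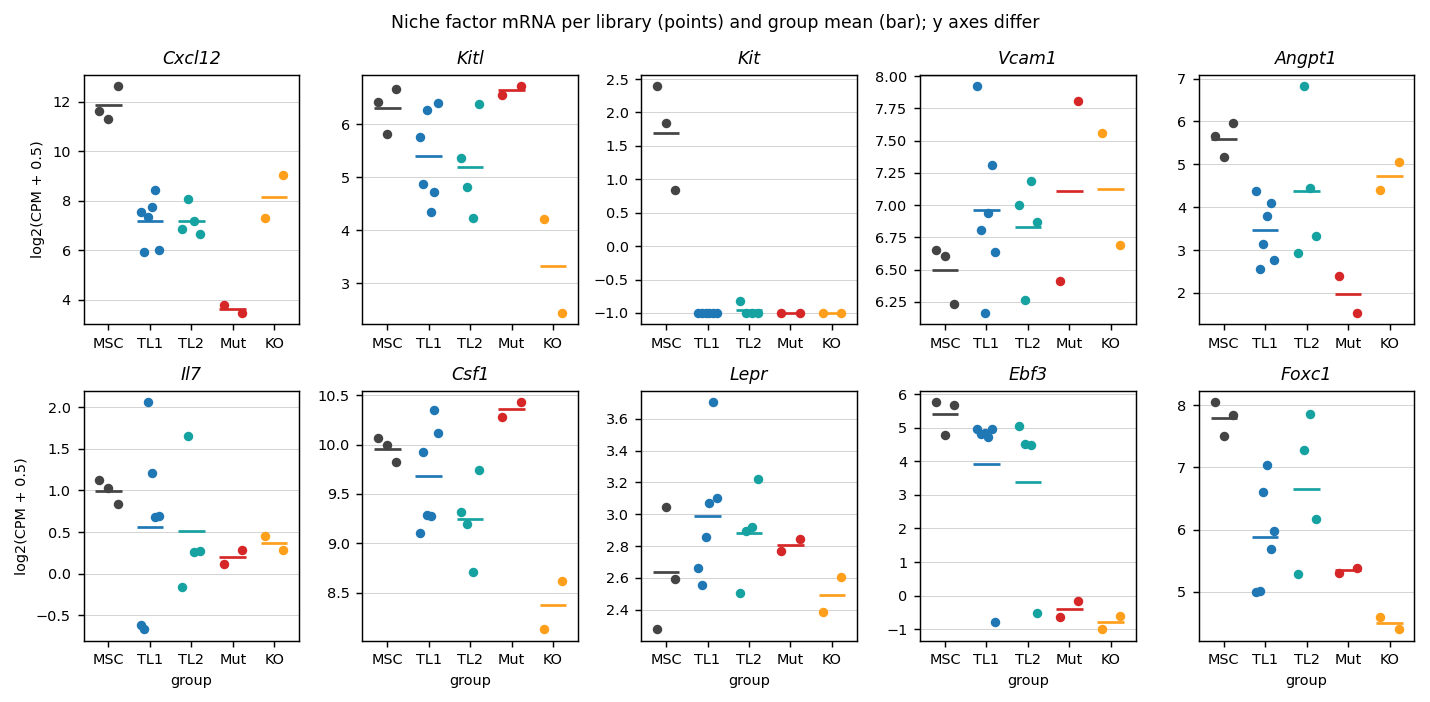
Level of each of the 10 genes in log2(CPM + 0.5) on the y axis, in the 17 libraries (points) of 5 groups (x axis), with the group mean as a bar; Mut and KO are the clones. Cxcl12 and Kit separate MSC from all other libraries, Ebf3 falls to 5 counts or fewer in 6 libraries, and Csf1 is lower in both KO clones than in any other library.

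Tumour lines had far less Cxcl12 mRNA than the MSC. The chemokine stood at 3189, 2505 and 6393 CPM in MSC 1, 2 and 3, while the 10 tumour lines lay between 60.3 and 344 CPM, with a median of 155 CPM. No tumour line came near the lowest MSC library. The change was -4.58 on the log2 scale (SE 0.463, adjusted p = 0.000199, edgeR's quasi-likelihood test with Benjamini-Hochberg adjustment), a 24.0-fold lower level. Within TL1, lines 1b and 3b were low, at 60.3 and 64.3 CPM, and lines 1a, 2a, 2b and 3a lay between 163 and 344 CPM. The TL2 lines 1, 2a, 2b and 3 stood at 114, 268, 146 and 99.4 CPM. The TL2 lines lay within the range of the TL1 lines.

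Kit, the receptor for stem cell factor, was counted in the MSC only, apart from a single count. MSC 1, 2 and 3 had 57, 38 and 17 counts, or 4.77, 3.07 and 1.29 CPM. Of the 10 tumour lines 9 had no count, which allows up to 0.225 CPM in the line where 3 counts weigh most, and TL2 1 had 1 count. Over the groups, 112 counts stood against 1, a ratio of 434 with a 95% counting interval of 76.3 to 1.73e+04 that covers counting error only. The difference passed the test (adjusted p = 0.00184, edgeR). Kit passed the filter on low counts only through the MSC, where it was high, so that p-value is no independent support. No clone had a count either, so that MSC were at least 26.2-fold higher than the Mut clones and at least 25.1-fold higher than the KO clones, from 3 counts over each group. Marrow cultures can hold blood cells that express Kit. The mast cell genes Cpa3, Mcpt4, Tpsb2, Cma1 and Fcer1a and the progenitor gene Gata1 had no count in MSC. Others of that list did, with Gata2 at 4.33 to 7.67 CPM and Cd34 at 4.52 to 20.9 CPM. Hdc, Myb and Ms4a2 reached 0.607, 0.53 and 0.0808 CPM. All 11 markers of mast cells and blood progenitors summed to 11.2 to 29.2 CPM in MSC and 5.94 to 882 CPM over the tumour lines. Cd34 alone stood at 876 CPM in TL2 3. The 10 markers of macrophages and other blood cells summed to 7.51 to 34.5 CPM in MSC and 4.61 to 32.7 CPM over the lines, and the 8 endothelial markers to 5.49 to 8.11 CPM and 1.77 to 9.42 CPM, respectively. Il7r, a chain of the IL-7 receptor, stood at 0.920, 0.0808 and 0 CPM in MSC 1, 2 and 3, and MSC 1 also had the most Kit. Whether blood cells gave the Kit counts was not tested. The 5 melanocyte markers summed to 8.53 to 11.4 CPM in MSC and 8.71 to 18.4 CPM over the lines, with Dct at 0 in both.

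Those were the 2 members called among the 10, both lower and neither overlapping with MSC. Over all 13262 genes tested, 3.86% were called higher (512 genes) and 4.79% lower (635 genes), and the libraries did not overlap in 5.04% of genes in the higher and 7.53% in the lower direction. The median log2 change was -0.90 over the 10 members, whatever level Kit is given at the floor, and 0.10 over all genes. With library totals in place of TMM the counts over all genes were 680 higher and 547 lower. They fell to 88 and 261 without MSC 1, and to 75 and 229 without MSC 3. Without MSC 2, 247 genes were called higher. Cxcl12 and Kit stayed called under each of these.

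Stem cell factor mRNA did not follow Cxcl12. Kitl stood at 85.2, 55.8 and 102 CPM in MSC 1, 2 and 3, and the tumour lines ranged from 18.3 to 84.4 CPM and overlapped with them. Its log2 change was -0.81 (SE 0.471, adjusted p = 0.294). TL1 2a, TL1 3b and TL2 3 kept 76.3, 84.4 and 83.1 CPM, within the MSC range, while TL1 2b, TL2 2b and TL1 3a were at 19.9, 18.3 and 25.8 CPM. Angpt1 stood at 49.9, 35.6 and 61.6 CPM in MSC and between 5.39 and 21.4 CPM in 9 tumour lines, but TL2 2a had 113 CPM, the highest of all libraries. With that line the log2 change was -1.19 (SE 0.655, adjusted p = 0.267), and without it -1.98 (adjusted p = 0.018, edgeR); it passed the test only without that line. Csf1 was abundant throughout, at 1071, 1018 and 905 CPM in MSC and between 419 and 1303 CPM in the tumour lines. Its log2 change was -0.41 (SE 0.276, adjusted p = 0.371). The lines whose titles carry the number 3 had the 2 highest values, 1303 CPM in TL1 3a and 1112 CPM in TL1 3b. Il7 was near the detection limit, with 17 to 20 counts in each MSC library (1.29 to 1.67 CPM) and 2 to 55 counts in the tumour lines (0.130 to 3.67 CPM, log2 change -0.26, SE 0.832, adjusted p = 0.864). TL1 1a and TL1 1b had 2 counts each, and TL1 2a had 55.

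Vcam1 and Lepr, the surface proteins by which such stromal cells are often isolated, did not pass the test in the tumour lines. Vcam1 stood at 99.97, 97.01 and 74.86 CPM in MSC and between 71.2 and 242 CPM in the lines, as 1 of the 2 members with a positive change (log2 0.50, SE 0.316, adjusted p = 0.336). TL1 1a had the highest value, 242 CPM, and TL1 2a the lowest, 71.2 CPM. Lepr stood at 4.35, 7.75 and 5.54 CPM in MSC and between 5.19 and 12.5 CPM in the lines (log2 0.36, SE 0.320, adjusted p = 0.501). Only TL1 3a, at 12.5 CPM, was above 9 CPM.

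Of the transcription factors, Foxc1 was lower on average and Ebf3 was split. Foxc1 stood at 264, 180 and 229 CPM in MSC 1, 2 and 3. In the lines it ranged from 31.5 to 230 CPM with a median of 67.3 CPM, and its log2 change was -1.26 (SE 0.478, adjusted p = 0.115). The lines numbered 1 had 31.5, 31.7 and 38.5 CPM, those numbered 3 had 51.0, 62.7 and 71.9 CPM, and those numbered 2 had 96.5, 131, 155 and 230 CPM, so that lines of a number lay together whatever their generation. TL2 2b, at 230 CPM, was the only line above the lowest MSC library.

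Ebf3 stood at 53.8, 26.7 and 50.3 CPM in MSC. In 8 tumour lines it lay between 22.0 and 32.8 CPM (314 to 500 counts), around the lowest MSC library. In TL1 3b it had 1 count and in TL2 3 it had 3 counts. TL1 3a, with the same number in its title, had 30.6 CPM. The 4 clones were also at 0 to 5 counts, 0.145 and 0.398 CPM in Mut clones 1 and 2 and 0 and 0.159 CPM in KO clones 1 and 2. Over groups, the ratio of MSC to the Mut clones was 164 (95% counting interval 79.5 to 409) and that of MSC to the KO clones 551 (152 to 4.55e+03). The test of tumour lines against MSC gave a log2 change of -0.99 with a wide error (SE 0.979, adjusted p = 0.547). Ebf3 overlaps a pair of annotated antisense genes, of which Gm10578 had at most 1 count in any library. Vcam1, Angpt1 and Il7 overlap an antisense gene each, and without a stated strand setting reads of such partners cannot be told apart.

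**Figure D2:**
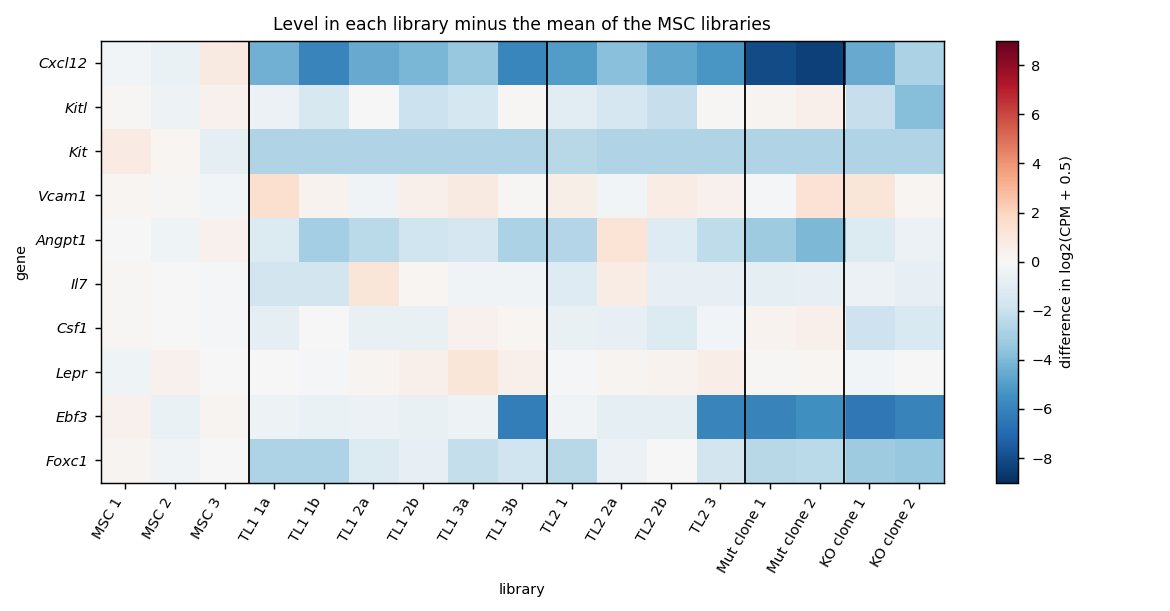
Level of each gene (rows) in each library (columns) as the difference in log2(CPM + 0.5) from the mean of the 3 MSC libraries, blue for lower and red for higher; vertical lines part the groups. Cxcl12 and Kit are blue in all 14 tumour-derived libraries, and Ebf3 is deep blue in TL1 3b, TL2 3 and the 4 clones only.

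The relatives of Ebf3 were lower in every tumour line. Ebf1, an early B-cell factor also made by marrow stroma, stood at 53.3 to 81.7 CPM in MSC and between 1.89 and 18.1 CPM in the lines (log2 -3.06, SE 0.521, adjusted p = 0.00415, edgeR). Its highest values among the lines were 18.1 CPM in TL1 3b and 16.5 CPM in TL2 3, the lines with almost no Ebf3. Ebf2 had 146 counts in MSC and 3 in all the lines, a ratio of 189 (95% counting interval 63.3 to 925, adjusted p = 0.000865). No clone exceeded 0.0787 CPM of Ebf2. These genes belong to a list of 15 other transcription factors of niche cells, all tested, of which 6 were lower and 0 higher, with a median log2 change of -1.72. Zfp423, a regulator of preadipocytes that binds EBF proteins, had 397 counts in MSC and 32 in the lines (log2 -5.55, SE 0.812, adjusted p = 0.00171). Ebf2 and Zfp423 passed the filter on low counts only through the MSC, where they were high, so their p-values are no independent support. Pparg, the regulator of adipocyte genes, was at 57.7 CPM in MSC and 7.36 CPM in the lines (log2 -3.02, SE 0.567, adjusted p = 0.00706).

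**Figure D3:**
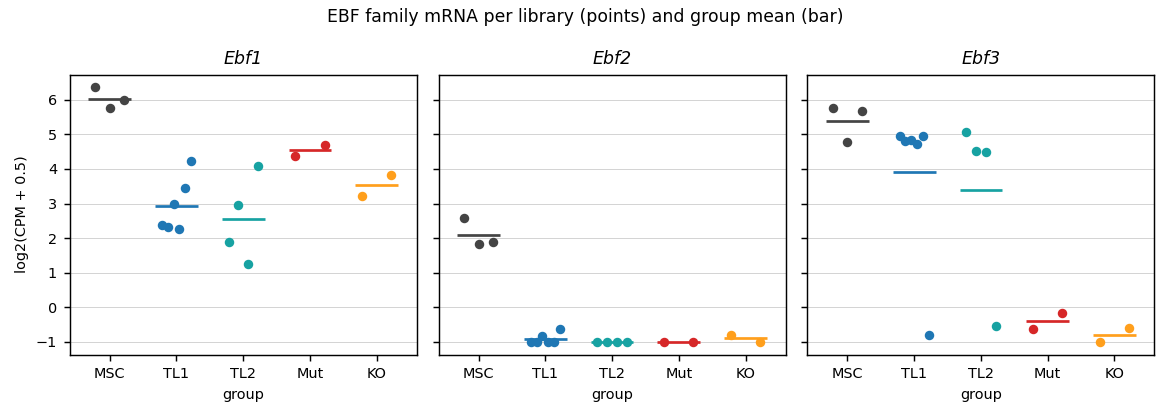
Levels of Ebf1, Ebf2 and Ebf3 in log2(CPM + 0.5) (y axis) in the libraries (points) of the 5 groups (x axis), with group means as bars. Ebf1 is lower in every tumour-derived library than in MSC, Ebf2 has at most 2 counts in any of them, and Ebf3 is around the lowest MSC library in 8 of 10 tumour lines.

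Among the other stromal niche factors Jag1 and Igf1 were lower in the lines. Of 24 listed, 21 were tested, 0 were higher and 2 lower, with a median of -0.55. Jag1, a Notch ligand, was at 34.4 to 83.7 CPM in MSC and between 3.18 and 13.1 CPM in the lines (log2 -3.31, SE 0.370, adjusted p = 0.000274). Igf1, an insulin-like growth factor, averaged 30.1 CPM in MSC and 3.00 CPM in the lines (log2 -3.50, SE 0.918, adjusted p = 0.0351). Among the 13 receptors of the niche factors, 8 were tested, 1 was higher and 1 lower, with a median of 0.18. Ackr3, listed as Cxcr7, the scavenger receptor of CXCL12, stood at 0.837 to 4.68 CPM in MSC and between 13.6 and 145 CPM in the lines (log2 4.63, SE 0.949, adjusted p = 0.0114). The tumour lines thus had less mRNA of the ligand and more of that receptor. Cxcr4, the signalling receptor, was at 0 to 50.4 CPM in the lines and under 1 CPM in all MSC libraries. Itga9, an integrin chain that binds VCAM1, was at 15.1 CPM in MSC and 0.952 CPM in the lines (log2 -4.56, SE 1.25, adjusted p = 0.0404). Itga9 passed the filter on low counts only through the MSC, so that p-value is no independent support. None of the 6 tested enzymes that cut or inactivate niche factors, of the 6 tested genes of leptin receptor signalling and of the 10 tested genes of the NF-kB list was called, with medians of -0.33, -0.21 and 0.51. Of 16 mesenchymal surface markers 0 were higher and 5 lower, with a median of -0.17. Among them were Thy1 at 44.7 CPM in MSC and 0.713 CPM in the lines, Eng at 73.93 and 4.595 CPM, Cdh11 at 506 and 26.8 CPM, and Itga11 at 346 and 7.64 CPM (adjusted p 0.00171, 0.00237, 0.0081 and 0.0174).

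The second tumour generation was not distinguished from the first. None of the 13262 genes passed the test in TL2 minus TL1 with edgeR (0% called higher, 0% lower), with 246 at an unadjusted p under 0.05. DESeq2 called 3 lower and limma-voom none, and none of those called was a member. The libraries of the generations did not overlap for 0.0452% of genes in the higher and 0.0905% in the lower direction, and overlapped for all 10 members. Angpt1 had the largest fitted change of the members counted in both generations (log2 1.69, SE 0.674, adjusted p = 1 in edgeR), with 113 CPM in TL2 2a and 7.16, 21.4 and 9.45 CPM in TL2 1, 2b and 3. Foxc1 averaged 67.5 CPM in TL1 and 124 CPM in TL2 (log2 0.88, SE 0.492), and Csf1 863.5 and 624.9 CPM (log2 -0.46, SE 0.279). The lists of other niche factors, transcription factors, receptors, enzymes, leptin signalling, NF-kB and surface markers had 0 called genes each, with medians between -0.39 and 0.09.

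Between the KO clones and the Mut clones the ligands went in opposite directions. Cxcl12 and Angpt1 were higher, and Kitl, Csf1 and Foxc1 lower, in both KO clones. Of the 10 members 7 passed the filter on low counts, 2 were called higher and 3 lower, against 14.2% of 12238 genes called higher and 12% called lower. With 2 libraries a side, non-overlap is common: 34.6% of genes were higher and 35.1% lower in both KO clones. The median log2 change was -0.32 over the 7 members and 0.00 over all genes, and -0.13 over all genes with library totals in place of TMM. Leaving out any clone lowered the counts from 1734 higher and 1466 lower to between 796 and 1016 and between 502 and 753.

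Cxcl12 stood at 13.2 and 10.5 CPM in Mut clones 1 and 2, under every tumour line, and at 159 and 519 CPM in KO clones 1 and 2. KO clone 1 was within the range of the tumour lines and KO clone 2 above it, and both were far under the MSC. The log2 change was 4.85 (SE 0.675, adjusted p = 0.00933, edgeR), a 28.9-fold difference. Without Mut clone 1 or Mut clone 2 the adjusted p was 0.0578 and 0.0675 at log2 changes of 5.03 and 4.68. Angpt1 stood at 4.78 and 2.39 CPM in the Mut clones, under every tumour line, and at 20.5 and 32.9 CPM in the KO clones (log2 2.90, SE 0.457, adjusted p = 0.00681). Fitted with all 17 libraries, its adjusted p was 0.115.

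Kitl stood at 94.1 and 105 CPM in the Mut clones, above every tumour line, and at 18.1 and 4.94 CPM in the KO clones. KO clone 1 was level with the lowest tumour line, TL2 2b at 18.3 CPM, and KO clone 2 was below it. The log2 change was -3.10 (SE 0.624, adjusted p = 0.0238), with 0.0747 and 0.0877 when Mut clone 1 or Mut clone 2 was left out. Csf1 stood at 1245 and 1380 CPM in the Mut clones and at 280 and 393 CPM in the KO clones, below every tumour line (log2 -1.95, SE 0.247, adjusted p = 0.00322). Foxc1 stood at 38.9 and 41.5 CPM in the Mut clones and 23.6 and 20.6 CPM in the KO clones, the lowest of all libraries (log2 -0.84, SE 0.236, adjusted p = 0.0417). Its adjusted p was 0.0937 without Mut clone 1, 0.125 without Mut clone 2, 0.118 without KO clone 1 and 0.195 without KO clone 2, and 0.475 with all 17 libraries in the fit.

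Vcam1 and Lepr were not called between the clones. Vcam1 stood at 84.4 and 223 CPM in the Mut clones and 188 and 103 CPM in the KO clones, with as much difference within a group as between groups (log2 -0.06, SE 0.540, adjusted p = 0.943). Lepr stood at 6.31 and 6.69 CPM in the Mut clones and 4.72 and 5.58 CPM in the KO clones. Its libraries did not overlap, but the change did not pass the test (log2 -0.32, SE 0.390, adjusted p = 0.582). Il7 was counted 8 to 11 times in each clone, between 0.580 and 0.866 CPM. Kit had no count in any clone, and Ebf3 had at most 5. Other marker lists moved with the clones as well. Of 8 skeletal muscle markers tested all 8 were higher in the KO clones, at the summed levels given above. All but Chrna1 were near the floor in the Mut clones, at 0.507 CPM or less. They passed the filter on low counts only through the KO clones, so those calls are no independent support. The osteoblast markers summed to 37.7 to 112 CPM in the Mut clones and 688 to 840 CPM in the KO clones, with Col1a1 alone averaging 41.5 and 755 CPM. Of 3 osteoblast markers tested, Col1a1 and Dmp1 were called higher and Phex lower (32.4 and 5.54 CPM, adjusted p = 0.00236, edgeR). The markers of mast cells and blood progenitors summed to 350 to 644 CPM in the Mut clones and 29.6 to 51 CPM in the KO clones. Of the 2 of them tested, Gata2 was called higher in the KO clones (0.887 and 17.02 CPM, adjusted p = 0.0251), while Cd34 stood at 348 and 643 CPM in the Mut clones and 44.1 and 0.319 CPM in the KO clones and did not pass the test (adjusted p = 0.155). Dmp1 and Gata2 also passed the filter only through the KO clones. The part of these marker lists in the changes of the niche factors was not tested.

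**Figure D4:**
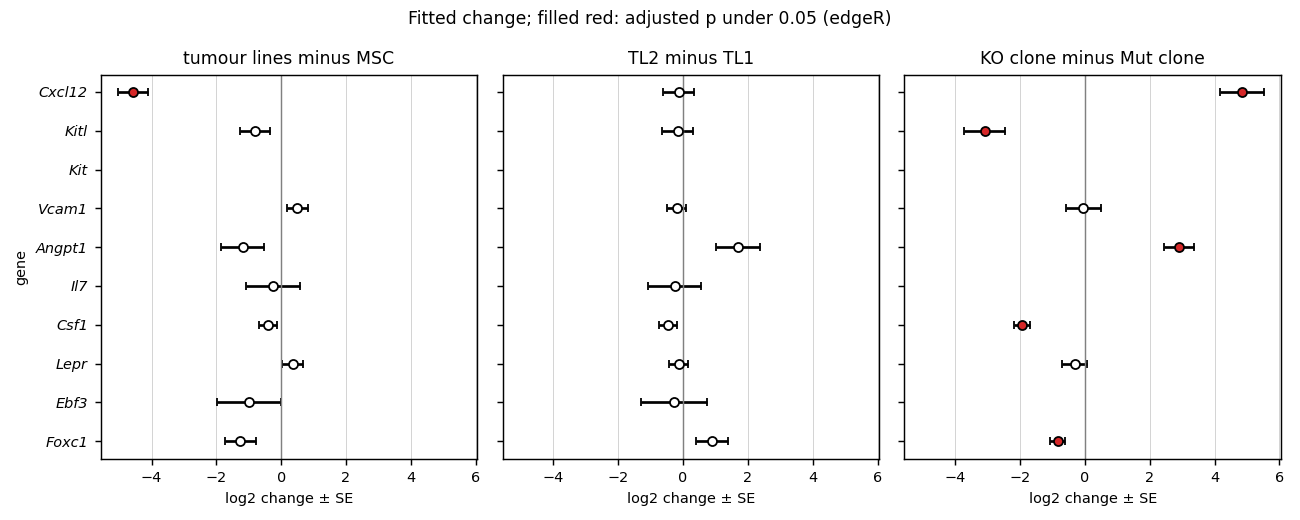
Fitted log2 change with its SE (x axis) for each gene (y axis) in the 3 comparisons; filled red points have an adjusted p under 0.05 in edgeR, genes under the filter have no point, and Kit is left out because its counts are at the floor outside MSC. Cxcl12 is at -4.58 in tumour lines minus MSC and at 4.85 in KO minus Mut clones, and no point is filled for TL2 minus TL1.

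The other niche genes differed between the clones in both directions. Of the 21 other stromal niche factors tested, 8 were higher in the KO clones and 2 lower, with a median log2 change of 0.22. Tnc, the matrix protein tenascin C, stood at 34.8 and 28.5 CPM in the Mut clones and 1423 and 1456 CPM in the KO clones (log2 5.52, SE 0.254, adjusted p = 9.83e-05). Dll1, a Notch ligand, averaged 1.31 and 41.2 CPM (adjusted p = 0.0012), and Ptn, the growth factor pleiotrophin, was also called (log2 4.77, SE 0.895, adjusted p = 0.012). Igf1 had 1 count in the Mut clones and 256 in the KO clones, a ratio of 267 (95% counting interval 47.5 to 1.06e+04, adjusted p = 0.0019). Ptn and Igf1 passed the filter on low counts only through the KO clones, where they were high, so their p-values are no independent support. Of 12 tested transcription factors 3 were higher and 3 lower, with a median of -0.79. Runx1, a regulator of blood development, averaged 93.5 and 338 CPM, Runx2, a regulator of bone formation, 34.8 and 87.7 CPM, and Twist1, a mesenchymal regulator, 96.1 and 27.2 CPM (adjusted p 0.00159, 0.00866 and 0.00283). Zfp521 had 4 and 611 counts (adjusted p = 0.00257), and it too passed the filter only through the KO clones. Ebf1 was at 20.4 and 25.6 CPM in the Mut clones and 8.74 and 13.8 CPM in the KO clones (adjusted p = 0.0667).

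Of 7 tested receptors 3 were higher and 4 lower in the KO clones, with a median of -1.54. Itgb7, an integrin chain of lymphocytes that pairs with alpha 4, stood at 316 and 295 CPM in the Mut clones and 0.708 and 0.239 CPM in the KO clones (log2 -9.28, SE 0.425, adjusted p = 9.83e-05). Itga4, the alpha 4 chain, was at only 0.217 and 0.239 CPM in the Mut clones and 2.91 and 0.159 CPM in the KO clones. Itgb1, the broadly expressed relative of Itgb7, averaged 822 and 2042 CPM (adjusted p = 0.00606). Flt3, a cytokine receptor of blood progenitors, had 161 counts in the Mut clones and 2 in the KO clones, a ratio of 77.1 (95% counting interval 21 to 642, adjusted p = 0.00603). Il2rg, the shared chain of the IL-7 receptor, was called lower (log2 -2.97, adjusted p = 0.0202), while Il7r, the other chain, had no count in any clone. Itgb7, Flt3 and Il2rg passed the filter on low counts only through the Mut clones, where they were high. Their p-values are therefore no independent support. Mmp2 and Mmp14, matrix proteases, were 2 of 4 tested enzymes called higher (log2 4.67 and 1.51, adjusted p 0.00308 and 0.0132, median of the 4 at 0.70), and Adam17, a sheddase, the 1 called lower (log2 -0.90, adjusted p = 0.0359). In leptin receptor signalling 1 of 6 was called, with a list median of 0.54: Ptpn1, a phosphatase (log2 0.72, adjusted p = 0.0474). In the NF-kB list, with a median of -0.65, 2 of 10 were higher, Birc3 and Tnfaip3 (log2 1.82 and 1.37), and 1 lower, Irf1 (log2 -1.18, adjusted p 0.0124, 0.0135 and 0.0137). Of 14 tested surface markers 6 were higher and 2 lower, with a median of 0.38. The pericyte genes Nes, Mcam and Cspg4 (log2 3.42, 7.31 and 4.50) and Cdh2, N-cadherin (log2 1.61), had the smallest adjusted p of the list (0.00028, 0.000683, 0.00511 and 0.00635). Mcam and Cspg4 passed the filter only through the KO clones, where they were high, so their p-values are no independent support.

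How the members varied with each other is a description over libraries that share cell lines and group differences. Over the 17 libraries, on the log2(CPM + 0.5) scale, Cxcl12 and Angpt1 had r = 0.82 and Kitl and Csf1 r = 0.68, while Cxcl12 had r = -0.09 with Kitl and -0.11 with Csf1. Over the 10 tumour lines alone Cxcl12 and Angpt1 had r = 0.70, Kitl and Csf1 r = 0.28, and Il7 and Vcam1 r = -0.72. The genes most like Cxcl12 in all 17 libraries were Plekhg2 (r = 0.95, and 0.78 over the 10 lines), Ttyh3 (0.945 and 0.719) and Ggcx (0.94 and 0.603). For Kit they were Gria3, Hnmt and Psma8 (r 0.991, 0.986 and 0.985), each at 1.80 CPM or more in MSC and 0.0429 CPM or less on average in the lines, and over the 10 lines the values were between -0.198 and -0.111. For Angpt1 they were Cblb, Daam2 and Fzd1 (0.9, 0.882 and 0.868), for Kitl Mettl17, Orai3 and Ccdc9 (0.918, 0.891 and 0.884), and for Csf1 Rftn1, Il11ra1 and Adam15 (0.929, 0.912 and 0.9). For Ebf3 they were Amigo2, Smek2 and Pced1b (0.923, 0.9 and 0.867), and for Foxc1 Kif6, H19 and Lsr (0.911, 0.888 and 0.875, with 0.977, 0.931 and 0.931 over the 10 lines). Vcam1, Il7 and Lepr had weaker neighbours, with r up to 0.778 for Grb2, 0.834 for Slc52a3 and 0.83 for Ace.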

How the data were processed

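RNA was measured by sequencing of total RNA in 17 libraries. The authors deposited raw counts as whole numbers, 1 row for each of 23420 gene symbols. Per the submitters' processing notes, the authors used cutadapt, TopHat2 2.0.10, HTSeq 0.6.1p1, DESeq2 1.6.3 and the build mm10; what each tool did, the annotation and the strand setting are not stated in the sources used here. Of the table's columns, 4 match no sample and were not used. Groups came from the titles.

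Differences were tested on the counts with edgeR 4.0.16 (quasi-likelihood, TMM, filterByExpr, robust) in R 4.3.3, Benjamini-Hochberg adjusted over all genes tested, at a threshold of 0.05. Tumour lines minus MSC and TL2 minus TL1 share a fit of MSC, TL1 and TL2, the first as the mean of TL1 and TL2, and the clones were fitted alone. The filter keeps a gene that is counted well in as many libraries as the smallest group has. Kit, Ebf2, Zfp423 and Itga9 passed it only through the MSC. In the clone fit Igf1, Zfp521, Ptn, Mcam, Cspg4, Gata2 and Dmp1 passed only through the KO clones. So did the skeletal muscle markers tested, other than Chrna1. Flt3, Itgb7 and Il2rg passed only through the Mut clones. The adjusted p-values of all these genes are therefore no support beyond the counts. The numbers of genes called per list can include others of this kind. The script was tested on simulated data in which 200 genes were given a change. Tumour lines minus MSC and the clone fit called far more genes, so the shares below may not carry over to them. In tumour lines minus MSC it called 32% of genes with a true log2 change of 1.5 and 47.8% of those at -1.5. For true changes of 3 and -3 it called 80% and 76.1%. In the clones the shares were 60% and 22% at 1.5 and -1.5, and 94% and 82.6% at 3 and -3. A gene that did not pass the test may therefore still differ. DESeq2 1.42.0, limma-voom 3.58.1, other scalings and filters, and each library left out are alternatives. CPM, counts scaled to a common total, were computed from the deposited counts, and exon lengths and positions come from GENCODE M21 on GRCm38, the assembly behind mm10. Counting intervals are exact at 95%.

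The members and gene lists were chosen with earlier results of these data known. The text names all members, up to 4 called genes of each pathway list in tumour lines minus MSC and in KO minus Mut, those with the smallest adjusted p, and the 3 genes with the highest r for each member. Cxcr4, Il7r, Itga4, Ebf1 in the clones, Trp53, Rn45s and marker genes are named outside that rule. All 151 list genes had a row, 3 under an older symbol. The numbers in the titles were taken to pair TL1 with TL2, since deviations from group means correlated at r = 0.451, 0.352 and 0.493 within the numbers 1, 2 and 3, over 13262 genes.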

Additional observations from a re-analysis of the deposited data

Results flagged for a closer look

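In the 18 tests of a single library against its group (6 TL1 or 4 TL2 libraries, genes above 3 counts), 4 values, in 3 libraries, stood apart from the rest of their group, where chance gives about 5% of groups. Angpt1 was at 113.3 CPM in TL2 2a, with the other TL2 lines between 7.158 and 21.37 CPM. Il7 was at 2.654 CPM (41 counts) in the same line, with the others between 0.394 and 0.7075 CPM. Lepr was at 12.53 CPM in TL1 3a, with the other TL1 lines between 5.391 and 8.068 CPM. Ebf3 was at 0.0747 CPM (1 count) in TL1 3b, with the others between 26.07 and 30.69 CPM.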

How the results depend on the processing

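Cxcl12 stayed lower and called in tumour lines minus MSC under all alternatives run, and Kit under all but the filter at a mean of 1 CPM, which removes it and leaves 1 member called lower. The counts of genes moved with the test: DESeq2 gave 1167 higher and 1041 lower and limma-voom 964 lower, while TL1 alone minus MSC gave 387 lower and TL2 alone 251 higher and 295 lower. With 1 library left out they ranged from 75 to 682 higher and 229 to 850 lower, and members called lower from 2 to 3. The MSC share only a number with the lines (r from -0.0452 to 0.225 within numbers); with the number as a replicate block 718 genes were higher and 968 lower, and Foxc1 was called (-1.79, adjusted p = 0.0104, edgeR), but not with the lines summed per number (-1.46, adjusted p = 0.132) or under any other alternative. The block left TL2 minus TL1 at 0 and 0 and changed no other call of a member. In TL2 minus TL1 DESeq2 gave 3 lower, limma-voom put Cxcl12 at 0.02 and Il7 at 0.17, and with 1 library left out Cxcl12 ranged from -0.52 to 0.19, Kitl from -0.75 to 0.07, Vcam1 from -0.34 to 0.04, Il7 from -1.13 to 0.36, Lepr from -0.29 to 0.05 and Ebf3 from -0.69 to 0.10, none called. In KO minus Mut clones all 17 libraries in 1 fit gave 512 higher and 308 lower, with 1 member higher and 2 lower. With 1 clone left out the counts were 796 to 1016 and 502 to 753, and the members called 1 to 2 higher and 1 to 2 lower; the lone clone is then assumed to vary like the other group. Vcam1 was at 0.04 with limma-voom and from -0.60 to 0.78 with 1 clone left out. Angpt1 and Csf1 stayed called without each clone. The causes were not tested. Depth limits Kit and Il7 in all libraries and Ebf3 in 6, where a library at 0 counts allows up to 3.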
